A study of Homo sapiens with 4 samples.

Results

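The conserved centre of the 28S rRNA was examined in RNA crosslinked to NKRF, a G-patch protein of human ribosome biogenesis. It comprised 28S positions 1312 to 2095 and 2261 to 2895, the stretches that lie between large expansion segments, and was chosen by position alone. The first stretch has 784 nt (47S positions 9244 to 10027) and the second 635 nt (47S positions 10193 to 10827), together 1419 nt out of 13780 in the 47S pre-rRNA and 1419 of the 5070 nt of 28S. All of it is mature rRNA and none of it spacer, and positions are numbered as deposited, from 1 at the first base of 28S or of 47S. The chromosomal copies of the rDNA were not used here.

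The cells were Flp-In T-REx HEK293, a human embryonic kidney line that takes up a construct at a fixed genomic site and expresses it on tetracycline. All 4 groups received tetracycline for 24 h, and each group was 1 library. The groups were Flag-His tag alone with UV at 254 nm, Flag-His-NKRF with UV at 254 nm, tag alone with PAR (100 µM 4-thiouridine for 6 h, then 365 nm) and Flag-His-NKRF with PAR. The tagged protein was made in addition to the cells' own NKRF; no other allele is named in the labels. In the CRAC method used here, RNA that is crosslinked to a tagged protein in living cells is purified under native and then denaturing conditions, trimmed, ligated to adapters and sequenced as cDNA.

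The expansion segments of 28S differ in length between species, whereas the core folds much alike in all of them. The first stretch belongs to domain II of the large subunit rRNA and ends in the GTPase-associated centre, the site on which the ribosomal stalk is built and elongation factors act. The second stretch holds most of domain III. Small nucleolar RNAs guide 2′-O-methylation and pseudouridylation of many of these bases, and nucleomethylin (RRP8) places an N1-methyladenosine near the 5′ end of the first stretch. NKRF works with the helicase DHX15 and the exonuclease XRN2 on precursors of this RNA. In the cDNA, reverse transcriptase can misread or skip a nucleotide that carries a crosslinked peptide, and a crosslinked 4-thiouridine is often read as C.

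The sequences on which the results below turn are given as the deposited letters, in DNA code, 5′ to 3′ on the rRNA strand. The first 3 are 50-nt windows, shown because they held the highest coverage with UV (2369 to 2418), the largest NKRF ratio over the tag with UV (2769 to 2818) and the lowest PAR ratios, both of NKRF over the tag and of PAR over UV with NKRF (2469 to 2518). Capitals in them mark positions named below for a high share of changed bases.
28S 2369 to 2418: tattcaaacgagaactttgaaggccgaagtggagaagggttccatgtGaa
28S 2769 to 2818: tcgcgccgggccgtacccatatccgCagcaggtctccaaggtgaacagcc
28S 2469 to 2518: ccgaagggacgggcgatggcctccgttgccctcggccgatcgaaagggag

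The next 4 stretches are shown for single bases. Capitals mark, in turn, T1980 and G1981 in the GTPase-associated centre, every T under the highest PAR coverage of the core, the pair of deleted positions G2758 and T2761, and the N1-methyladenosine A1322.
28S 1961 to 2000: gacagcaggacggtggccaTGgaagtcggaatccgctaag
28S 2856 to 2895: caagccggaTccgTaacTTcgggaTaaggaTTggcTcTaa
28S 2741 to 2780: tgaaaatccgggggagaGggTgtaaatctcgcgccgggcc
28S 1312 to 1332: acccgtcttgAaacacggacc

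The last 5 are the T with the highest share of substitutions in the NKRF PAR library among those with at least 20 reads, each in capitals with 10 nt on either side.
T2090: tcgccggcagTcgagagtgga
T2267: ccgcggacgcTacgccgcgac
T1889: cgctgcgggaTgaaccgaacg
T1320: cgacccgtctTgaaacacgga
T1839: gggcgtggaaTgcgagtgcct

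Coverage is given in normalised hits, that is hits per 1000000 reads of a library. From the spacing of the values, 1 read was worth 1.19 (tag alone, UV), 0.920 (NKRF, UV), 8.91 (tag alone, PAR) and 4.43 (NKRF, PAR) normalised hits, and values for 4 libraries keep this order below. The libraries thus held about 841751, 1086957, 112202 and 225810 reads. At least 3269, 15364, 77 and 707 reads lay on the core, counted as the sum of all rises in coverage along it. The 95% intervals below come from exact binomial (Clopper-Pearson) limits on such read numbers. The protocols mention no molecular identifiers, so PCR copies cannot be told from separate molecules and the intervals cover counting error only. With 1 library per group no difference has a replicate check, and no test across samples was run.

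The first question was how much of the crosslinked pre-rRNA came from the core. The core held 3.60% of the 47S coverage with the tag alone and 6.68% with NKRF after UV, but 7.09% with the tag alone and 2.67% with NKRF after PAR. Its share of the 47S length is 10.3%, so its mean coverage was below that of the transcript in all 4 libraries. Medians in the core and over the 47S were 75 and 23, 325 and 256, 9 and 0, and 66 and 84. By the median the core thus lay above the 47S, except with NKRF after PAR. The intervals of the core shares were 3.48% to 3.72%, 6.58% to 6.78%, 5.64% to 8.78% and 2.48% to 2.87%. NKRF stood above the tag with UV and below it with PAR, and in neither mode did the intervals overlap.

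**Figure D1:**
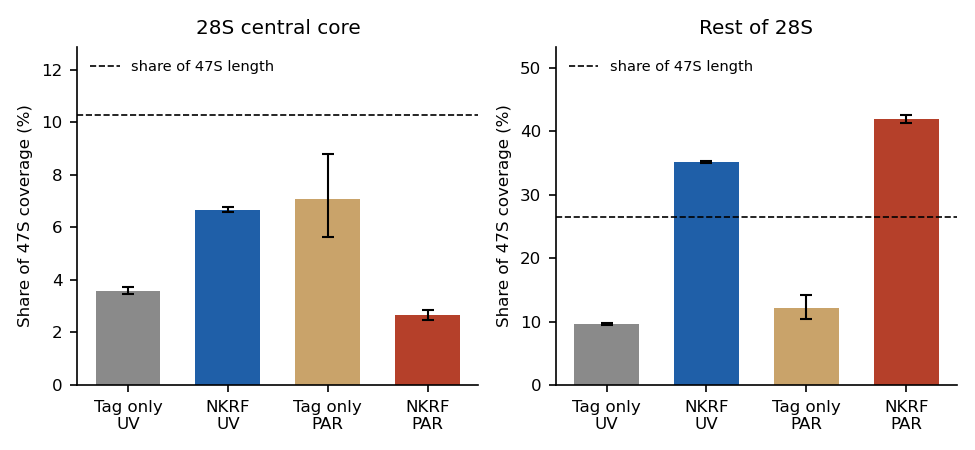
Share of the summed 47S coverage (percent, vertical axis) held by the 28S core and by the rest of 28S in the 4 libraries, 1 library per bar, with 95% Clopper-Pearson intervals for counting error; the dashed line is the share of the 47S length. The core share is higher with NKRF after UV (6.68% against 3.60%) and lower with NKRF after PAR (2.67% against 7.09%), while the rest of 28S is higher with NKRF in both modes.

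As a ratio of 47S shares, the core was 1.86-fold higher with NKRF after UV (1.79 to 1.93) and 2.66-fold lower with NKRF after PAR (2.07 to 3.36). The rest of 28S was 3.64-fold higher with NKRF after UV (3.56 to 3.73) and 3.44-fold higher after PAR (2.91 to 4.10). Per reads of the whole library, however, the core stood 4.47-fold above the tag after UV (4.30 to 4.64) and 4.48-fold above it after PAR (3.54 to 5.75), so the PAR direction turns with the scaling. Within 28S alone it was lower with NKRF in both modes: 27.2% against 15.96% with UV and 36.7% against 5.97% with PAR, where the core makes up 27.99% of the 28S length. The core therefore gained coverage with NKRF per library read, and gained less of it than the rest of 28S did in summed coverage.

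The tag-only libraries set the background. After UV, mean coverage of the core with the tag alone was 124.5 normalised hits, close to the 129.9 over the rest of 28S. With NKRF the means were 556 in the core and 1138 in the rest. After PAR the tag-only means were 16.8 in the core and 11.3 in the rest, and the NKRF means were 75.4 and 462. By the mean, the rest of 28S thus exceeded the core clearly in the NKRF libraries, slightly in the tag-only UV library and not in the tag-only PAR library. Medians with NKRF lay closer together, at 325 in the core and 493 in the rest after UV, and 66 and 84 after PAR. With the tag alone the medians were 75 and 71 after UV, and 9 and 0 after PAR. The highest position in the rest of 28S reached 8657 with NKRF after PAR. In the tag-only PAR library 529 core positions had no hit, and the mean depth there was 1.89 reads per position, against 105, 604 and 17.04 in the tag-only UV and in the NKRF libraries with UV and PAR.

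Of the pair of stretches, the second, mostly domain III, had the higher mean coverage in every library. Its mean coverage was 179, 826, 19.5 and 81.1 normalised hits, against 80.3, 337, 14.6 and 70.9 in the first. The medians were 129, 548, 18 and 62 in the second and 63.5, 255.5, 9 and 73 in the first. With NKRF after PAR the order thus turned by the median. In the tag-only PAR library the stretches held at least 42 and 35 reads. With NKRF the second stretch went down 3.46-fold from UV to PAR in its share of the 47S profile (3.11 to 3.87), and the first stretch was 1.62-fold lower (1.45 to 1.80). Both intervals exclude 1 and they do not overlap, so the loss from UV to PAR was larger in the second stretch.

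Coverage along the core was uneven. A peak was taken as the highest position within 25 nt on either side that reached at least 2 times the core mean of its library. There were 5, 5, 9 and 5 peaks in the 4 libraries. With UV, 4 of 5 peaks of each library lay in the second stretch. With the tag alone the highest was at 2378, with 904 normalised hits, followed by 2473 with 432 and 2872 with 361. With NKRF the highest was at 2384 with 3033, followed by 2806 with 2568 and 2875 with 1668. The top UV peak was thus shared by NKRF and the tag to within 6 nt, and 2473 was a peak of both UV libraries. By 50-nt window, the highest tag-only UV means were 668 at 2369 to 2418, 333 at 2469 to 2518 and 224 at 2819 to 2868, and the highest NKRF UV means were 2429, 1861 and 1198 at 2369 to 2418, 2769 to 2818 and 2469 to 2518.

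The top UV peak had abrupt borders at the same bases in both libraries. Coverage rose from 1028 at 2373 to 2857 at 2374 with NKRF and from 409 to 821 with the tag alone. It fell from 2105 at 2414 to 987 at 2415 with NKRF and from 444 to 148 with the tag alone. Borders of this kind, set by many reads that begin or end at a single base, were therefore not particular to the NKRF library. Over the core, 68.5% of the rises with the tag alone and 75.7% with NKRF followed a C or T, bases that make up 44.0% of the core. In the NKRF PAR library the share was 50.5%, and in the rest of 28S in that library 67.6%.

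With PAR the highest NKRF peak was at 2876, near the 3′ border of the core, with 403 normalised hits from 91 reads. The next were at 2802 with 182 and 1604 with 177. By window, the highest NKRF PAR means were 166 at 2819 to 2868, 121.5 at 1819 to 1868 and 119 at 1569 to 1618, where the tag-only PAR means were 40.2, 10.4 and 10.4. The tag-only PAR profile, thin as it was, peaked at 2878 with 89 normalised hits from about 9.99 reads, then at 2001 and 2493 with 80 each, and its highest windows were 1969 to 2018, 2469 to 2518 and 2819 to 2868, with means of 57.4, 48.1 and 40.2. At 2876 the coverage was 361 in the tag-only UV and 1668 in the NKRF UV library. All 4 libraries thus had a peak within 2872 to 2878, the stretch shown above with every T in capitals. At the top UV peak, position 2384, the NKRF PAR coverage was 106, of the order of the core mean of 75.4.

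**Figure D2:**
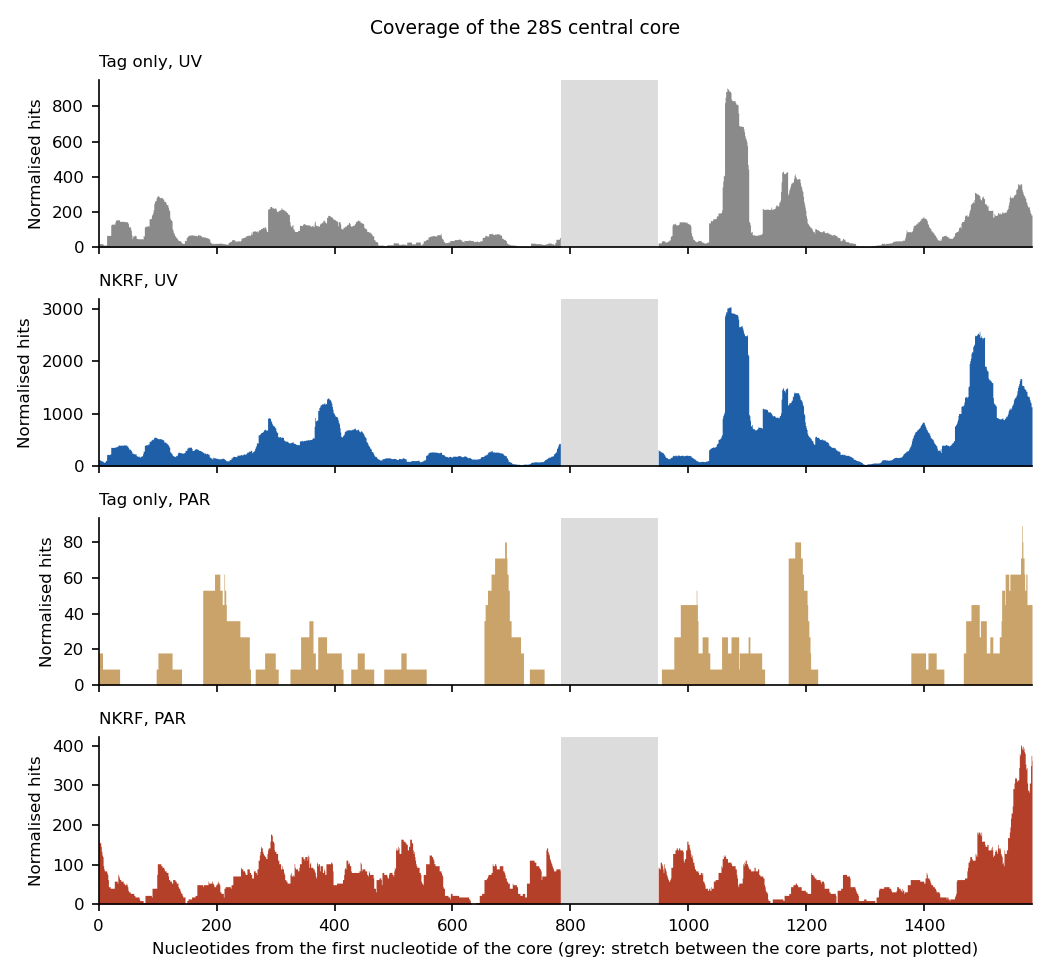
Coverage in normalised hits (vertical axis, linear, a scale of its own per panel) against nucleotides from the first nucleotide of the core, for the 4 libraries; the grey band is the expansion segment between the stretches, which is not plotted. The UV panels share their highest block, with maxima of 904 and 3033, and the NKRF PAR panel is highest at its right end, at 403.

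The UV profiles resembled each other more than any other pair of libraries did. For windows of 50 nt on the 47S grid, of which 27 lie wholly in the core and hold 1350 of its 1419 nt, Spearman's rank correlation of mean coverage was 0.94 between the UV libraries and 0.48 between the PAR libraries. Between NKRF UV and NKRF PAR it was 0.25. These values describe 27 neighbouring windows that share library and base composition. The NKRF PAR profile was also the flattest: its highest window was 9.88 times its lowest, against 39.8 times with NKRF UV, and its top 3 windows held 21.8% of the summed window means, against 37.1%.

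The comparison of NKRF with the tag alone asked which windows of the core were enriched beyond the background. A window was examined if its mean was at least 20 normalised hits in either library. After adding a pseudocount of 1 normalised hit to each mean, the window was called higher if the log2 of the ratio of 47S shares reached 1, and lower if it was at most -1. Folds for named windows leave out the pseudocount. With UV, 26 of the 27 core windows had a ratio above 1, and 10 were called higher with NKRF (37.0%) and 0 lower. Over all 252 windows of the 47S examined, 61.5% were called higher and 7.54% lower. The median log2 ratio was 0.92 in the core and 1.79 over the 47S. The core was thus higher with NKRF over nearly its whole length, and less often past the threshold than the 47S as a whole. Per library read, 26 windows passed the threshold upwards and 0 downwards, and scaled to the core alone 0 were higher and 1 lower.

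The 3 highest UV ratios were at 2769 to 2818, 1669 to 1718 and 2719 to 2768. In the first of these, mean coverage went from 223 with the tag to 1861 with NKRF, 3.48-fold as a share (3.09 to 3.92). At 1669 to 1718 it went from 145 to 991, 2.84-fold (2.46 to 3.30), and the NKRF UV peak at 1701 lies there. At 2719 to 2768 it went from 69.0 to 466, 2.81-fold (2.40 to 3.30). Each of these intervals excludes 1. The most covered window, 2369 to 2418, had a mean of 668 with the tag and 2429 with NKRF, a ratio of 1.51 (1.40 to 1.64). The most covered part of the core was therefore not its most enriched part. The highest log2 ratio of a core window was 1.79, equal to the median over the 47S. No core window thus stood clearly above the typical examined window of the 47S. The single UV ratio below 1 was at 2269 to 2318, where the means were 104 and 196 and the share with NKRF was 1.27-fold lower (1.04 to 1.54).

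With PAR, 15 of 26 examined core windows were called lower with NKRF (57.7%) and 3 higher (11.5%). Over all 240 windows of the 47S examined, 32.5% were called lower and 45.0% higher. The median log2 ratio was -1.20 in the core and 0.34 over the 47S. Of the 15 lower windows, 9 had an interval below 1. In all 3 higher windows (1869 to 1918, 2569 to 2618 and 2619 to 2668) the tag-only library had no hit, and with the tag set to a floor of 3 reads none gave a ratio above 1, so no fold is given. The direction rests on the scaling: per library read, 22 windows were higher with NKRF and 0 lower, and scaled to the core alone 9 were higher and 4 lower. Per library read the median log2 ratio over all 47S windows was itself 3.05 with UV and 3.92 with PAR, and the core medians were 2.18 and 2.37, below it in both modes.

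The largest PAR decrease was at 2469 to 2518, with means of 48.1 for the tag and 32.8 for NKRF, 17.5-fold lower as a share (6.59 to 44.2). It rested on about 8.98 tag-only reads and 12.9 NKRF reads. Tag-only coverage rose there from 0 at 2481 to 71 at 2482, so most of those tag-only reads began at a single base. The interval treats each of them as a separate molecule, which was not tested. At 1969 to 2018, in the GTPase-associated centre, the means were 57.4 and 74.0, and the share with NKRF was 9.24-fold lower (3.85 to 20.04). At 1469 to 1518 the means were 33.4 and 43.5, and the share was 9.15-fold lower (3.25 to 22.7). Tag-only coverage also rose from 0 at 1965 to 36 at 1966 and from 0 at 1488 to 53 at 1489. Reads with a shared start thus weigh on these ratios too. In the last 2 windows the NKRF mean itself was the higher of the pair, and the log2 ratio per library reads was 0.36 and 0.37. At 2469 to 2518 it was -0.54, so the ratio of this window was below 1 on either scale. Per library reads no interval was computed, and the few reads leave that direction uncertain.

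**Figure D3:**
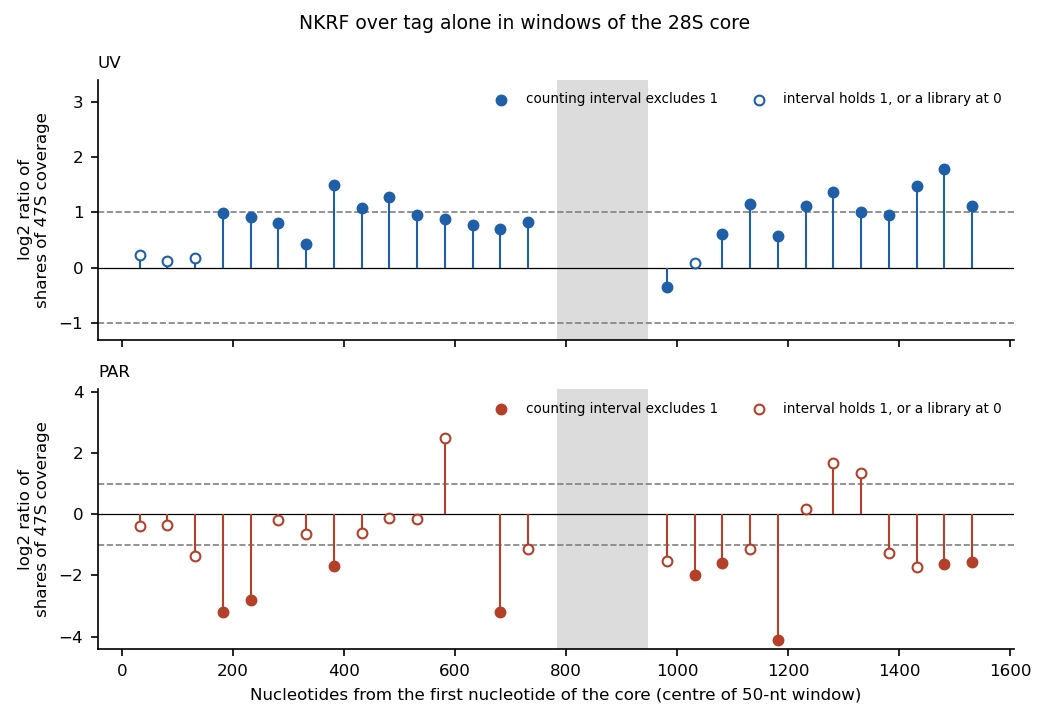
log2 ratio of NKRF over the tag alone in shares of 47S coverage (vertical axis, pseudocount 1 normalised hit) for the 50-nt windows of the core against nucleotides from its start; dashed lines are the thresholds of 1 and -1, filled points have a 95% counting interval that excludes 1. With UV 26 of 27 windows lie above 0, and with PAR 22 of 26 lie below 0; scaled to all reads of the library, 22 PAR windows are called higher and 0 lower.

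The ratios of both modes can be set side by side in 26 windows. In 5 of them, 1669 to 1718, 2419 to 2468, 2719 to 2768, 2769 to 2818 and 2819 to 2868, NKRF passed the upper threshold after UV and the lower one after PAR. The same held for 12 of the 235 windows of the 47S examined in both modes. Among these 5, the PAR interval lay below 1 at 1669 to 1718, 2769 to 2818 and 2819 to 2868, and the windows at 2419 and 2719 had about 2.02 tag-only PAR reads each. In 2 core windows, 2569 to 2618 and 2619 to 2668, the threshold was passed upwards in both modes, as in 98 of the 235, but the PAR calls there are against 0 tag-only reads and give no ratio above 1 at the floor of 3 reads. In the core 0 windows were lower in both, as were 19 of the 235. The difference between the modes was not tested. Scaled to all reads of the library no core window was lower with NKRF in either mode at the threshold.

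Between the modes, within the NKRF libraries, the part of the 47S profile held by the core was 2.50-fold lower with PAR than with UV (2.32 to 2.703), while the rest of 28S was 1.195-fold higher (1.17 to 1.22). Of the 27 windows, 13 were called lower with PAR (48.1%) and 2 higher (7.41%). Over the 257 windows of the 47S examined, 35.8% were called lower and 39.7% higher. The median log2 ratio was -0.91 in the core and 0.06 over the 47S. Each of the 13 and 2 called windows had an interval that excludes 1. Scaled to all reads of the library 24 were lower and 0 higher, and scaled to the core alone 5 were lower and 9 higher.

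The block around the top UV peak had the largest decreases between the modes. The window 2469 to 2518 went from 1198 normalised hits with UV to 32.8 with PAR, 12.4-fold lower as a share (7.24 to 23.3). The window 2369 to 2418 went from 2429 to 92.9, 8.88-fold lower (6.64 to 12.2). Between these windows, 2419 to 2468 went from 902 to 44.2, 6.92-fold lower (4.63 to 10.8). The windows with the higher PAR share were both in the last part of the first stretch. At 2019 to 2068 the mean was 61.1 with UV and 65.4 with PAR, 3.15-fold higher as a share (2.12 to 4.57). At 1819 to 1868 it was 121.1 and 121.5, 2.95-fold higher (2.21 to 3.89). In normalised hits these windows were level between the modes, with log2 ratios per library reads of 0.10 and 0.00.

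The tag-only libraries moved the other way as shares. The core was 1.97-fold higher with PAR than with UV (1.55 to 2.47), and 10 of 26 windows were called higher (38.5%) and 2 lower (7.69%). Over the 151 windows of the 47S examined, 31.1% were called higher and 28.5% lower. Of the called windows, 6 of the 10 higher and 0 of the 2 lower had an interval that excludes 1. The largest were at 1969 to 2018, 16.1-fold (7.11 to 32.2), 1519 to 1568, 12.9-fold (5.37 to 26.8) and 1469 to 1518, 9.95-fold (3.87 to 21.5), on about 8.98, 7.85 and 6.96 tag-only PAR reads. The first and last of these include the reads with a shared start described above. The lower windows were 1869 to 1918, where the means were 50.9 with UV and 0 with PAR, and 1369 to 1418, where they were 143.5 and 2.7. Those windows enter the NKRF ratios of the PAR mode as their control. Scaled to all reads of the library 0 tag-only windows were higher and 23 lower with PAR, and scaled to the core alone 5 were higher and 8 lower.

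**Figure D4:**
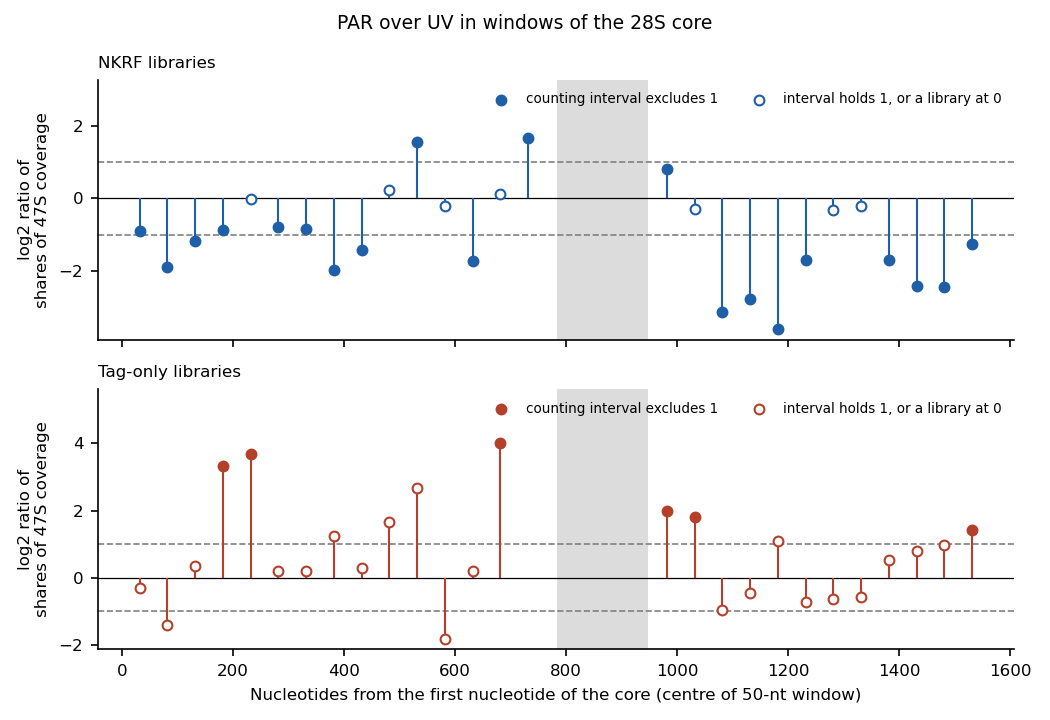
log2 ratio of PAR over UV in shares of 47S coverage (vertical axis, pseudocount 1 normalised hit) for the 50-nt windows of the core, in the NKRF libraries and the tag-only libraries, against nucleotides from the core start; dashed lines are the thresholds and filled points have a 95% counting interval that excludes 1. Of the NKRF windows 22 of 27 lie below 0 and of the tag-only windows 18 of 26 lie above 0; scaled to all reads of the library, 24 NKRF and 23 tag-only windows are called lower and 0 higher.

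Changed bases in the cDNA were then used to look at single nucleotides. The deposited substitutions and deletions were divided by the coverage of the position. In the UV libraries a position was called substituted at 10% or more and deleted at 5% or more of at least 20 reads. The tag-only UV library had 46 substituted positions of 1202 with that depth (3.83%), against 3.08% over the 47S. The NKRF UV library had 8 of 1419 (0.564%), against 1.29% over the 47S. Of the 46 tag-only positions 31 were A. Pooled over the core, A was substituted in 5.23% of its hits with the tag alone and in 2.63% with NKRF, while T stood at 1.68% and 1.69%. Higher shares with the tag alone therefore concerned mainly A. This was not particular to the core: A stood at 5.16% and 2.89% in the rest of 28S, and at 5.10% and 2.61% over the 47S. The UV files give no identity of the new base.

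The NKRF list was almost contained in the tag-only list. Of the 8 positions substituted with NKRF, 7 were also substituted with the tag alone, which is 87.5% of the NKRF list and 15.2% of the tag-only list. The overlap over the whole 47S was not counted, so this one cannot be called particular to the core. C2794, in the window with the highest UV ratio, was substituted in 33.8% of 213 reads with the tag (27.5% to 40.6%) and in 48.5% of 2363 with NKRF (46.5% to 50.5%). A1503 stood at 22.7% of 22 reads and 29.5% of 166, A1354 at 17.9% of 123 and 26.2% of 439, and G2416 at 10.9% of 119 and 11.7% of 1048. These bases were thus changed in either library, most of all C2794. The highest tag-only share was at A1387, 52.5% of 40 reads (36.1% to 68.5%), where NKRF had 8.02% of 262 (5.03% to 11.99%). A1368 and A1934 likewise stood higher with the tag, at 30% of 60 and 27.3% of 33 reads, against 5.92% of 304 and 3.83% of 209 with NKRF.

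The position on the NKRF list alone was G1981, in the GTPase-associated centre. It was substituted in 30.4% of 293 NKRF UV reads (25.2% to 35.99%) and 6.45% of 62 tag-only reads (1.79% to 15.7%). It was also the most deleted core position with NKRF, in 18.1% of its reads (13.9% to 22.98%) against 4.84% with the tag (1.01% to 13.5%). As G1981 is followed by another G, the sequence does not tell which of the pair a deletion removed. The intervals do not overlap for either kind of change. Its neighbours T1980 and G1982 were substituted in 2.69% and 0.667% of NKRF UV reads. In the NKRF PAR library the adjacent T1980 was substituted in 43.5% of 23 reads (23.2% to 65.5%). Such a share was not rare there: of 179 core T with at least 10 reads, 26 lay from 25% to below 50% and 20 at 50% or more. The tag-only PAR library gave no base changes to set beside it. Coverage at G1981 was modest, at 74 normalised hits with the tag and 270 with NKRF after UV, below the NKRF core mean of 556. Of the 12354 positions of the 47S with at least 20 NKRF UV reads, 7 had both substitutions and deletions at 10% or more, and G1981 was the 1 among them that lies in the core. With the tag alone 2 of 6888 positions did so, and 1 of them, G1922, also lies in the core: it was substituted in 21.1% and deleted in 10.5% of 38 tag-only reads (2.94% to 24.8% for deletions), against 1.79% and 0 of 224 NKRF reads.

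Deletions were called at 10 of 1202 core positions with the tag (0.832%), against 0.857% over the 47S, and at 10 of 1419 with NKRF (0.705%), against 0.615%. Of these, 4 were shared, which is 40% of each list, and 8 of the 10 NKRF positions had at least 20 tag-only reads. This overlap too was counted in the core alone. T2761 was deleted in 10.2% of 49 tag-only and 12.2% of 493 NKRF reads, and G2758, just upstream, in 9.30% of 43 and 11.96% of 460. Both lie in a run of purines broken by T2761, shown above. T1410 stood at 9.70% of 237 and 7.10% of 592, and G2705 at 6.87% of 131 and 7.78% of 810. For these 4 positions the intervals of the libraries overlap. G1475 was the most deleted with the tag, at 15.8% of 57 reads (7.48% to 27.9%) against 4.32% of 347 (2.44% to 7.03%). T2625 was deleted in 8.20% of 61 NKRF reads (2.72% to 18.1%) and had 8 tag-only reads. G2758, G2705 and T2625 are each followed by the same base, so a deletion listed there may belong to a neighbour. Pooled over the core, T was deleted in 0.323% and 0.406% of its hits, the highest of the 4 bases in both libraries.

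In the NKRF PAR library substitutions were listed at T alone, with 0 at all A, C and G of the core, so the file counts changes of T and nothing else. T was substituted in 17.3% of its hits in the core and 18.5% in the rest of 28S. Changes came to about 758 in the core against at least 707 reads, which is at most 1.07 changes per read, and the share of coverage that was changed was 3.14% in the core, 3.18% in the rest of 28S and 3.20% over the 47S. In the rest of 28S the same upper limit was 1.23 changes per read. Whether reads without a change were removed before deposit is not given in the sources used here.

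Of the 240 T of the core, 179 had at least 10 NKRF PAR reads, and 20 of these were substituted in 50% or more (11.2%), against 8.36% over the 47S and 40 of 332 (12.05%) in the rest of 28S. With at least 20 reads 6 of 91 T reached 50%, and with at least 50 reads 0 of 9, so the count depends on the read minimum. The median share was 9.52%, and 43 of the 179 lay under 1%. Of the 179, 89 reached 10% or more, and the 20 T held 29.3% of all T changes in the core, so changes were spread over many T. Among those with at least 20 reads, T2090 stood highest at 75% of 20 reads (50.9% to 91.3%). T2267, at the other side of the expansion segment, followed with 69.6% of 23 (47.1% to 86.8%). T1889 had 63.6% of 22 (40.7% to 82.8%), T1320 59.1% of 22 (36.4% to 79.3%) and T1839 had 57.6% of 33 (39.2% to 74.5%). With fewer reads, T2580 had 100% of 17 (80.5% to 100%) and T2070 93.8% of 16 (69.8% to 99.8%). The interval of T2580 lies above those of T1839 and T1320, while the intervals of the 5 T with at least 20 reads all overlap. T2580 was picked after its value was seen. Most of its coverage came from single-base rises, 4 to 35 and 40 to 75 normalised hits, 1253 and 1262 nt from the core start. Its reads may therefore stem from fewer molecules, and the interval cannot decide whether T2580 differs.

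None of the first 5 of these T stood out with UV. They were substituted in 0.260% to 1.79% of NKRF UV reads and in 0 of 11 to 61 tag-only UV reads, and deletions were 0 in both UV libraries. Of the 20 T, 12 lie in the first stretch and 8 in the second. The median number of neighbouring T within 15 nt was 3.5, against 5 for the 159 T below 50%. T1839 lies in the window 1819 to 1868, which had the higher share with PAR. The highest PAR coverage of the core, at 2876, had no T at 50% within the sequence shown, so the most covered place held none of the 20 T. A T in that sequence, 1562 nt from the first nucleotide of the core, was still substituted in 41.9% of reads. Its coverage was 381 normalised hits.

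**Figure D5:**
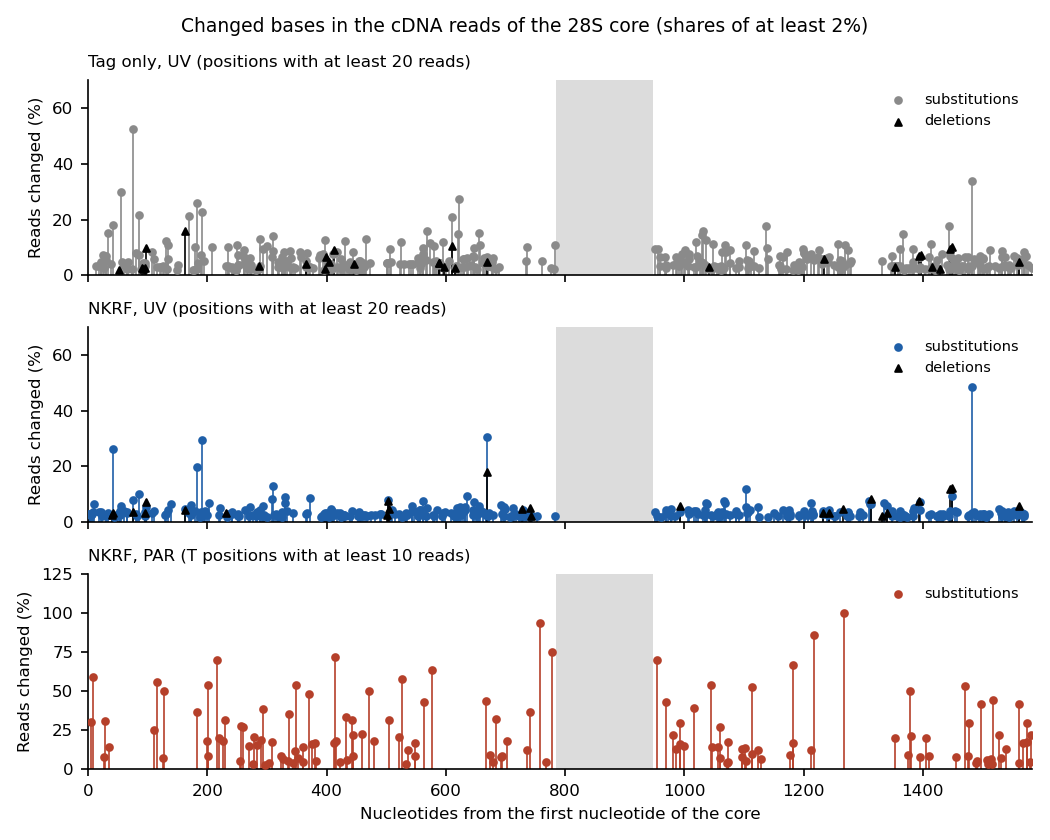
Percent of reads with a substitution (circles) or deletion (triangles), vertical axis, against nucleotides from the first nucleotide of the core, for positions with at least 20 reads in the UV libraries and T with at least 10 reads in the NKRF PAR library; shares under 2% are not drawn, and the tag-only PAR library has no panel. C2794 stands highest with NKRF UV at 48.5%, G1981 carries both kinds of change, and 20 T reach 50% with PAR.

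Known modified bases were looked up last. A list of 39 modified 28S bases that fall in the core (24 2′-O-methylated, 14 pseudouridines and the N1-methyladenosine) was taken from general knowledge, and the deposited letter was the one listed at 39 of 39. The list was compiled after the deposited letters had been read, so this match is no check of it. None of the positions named for a high share of substitutions or deletions, and none of the 20 T, was on the list; position 2415 at the border of the top UV peak was, as a 2′-O-methylated base, and was substituted in 5.31% of NKRF UV reads. The 2′-O-methylated bases were substituted in 1.67% of NKRF UV hits, against 1.69% at the other core positions. With the tag the shares were 1.86% and 2.13%, and 1 of 21 with enough reads reached 10%. Pseudouridines were substituted in 1.28% of NKRF UV hits against 1.69% at other T, and in 16.2% of NKRF PAR hits against 17.6%. Of the 8 pseudouridines with at least 10 PAR reads 0 reached 50%. With UV, pooled shares at both classes were thus at or somewhat below those of the other bases. With PAR the 2 T among the 2′-O-methylated bases were substituted in 1.67% of their hits (4 of 240), below the 17.6% at the other T. At most 5% of reads were changed at either of them.

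At the N1-methyladenosine A1322, a base that blocks ordinary pairing, 5 of 77 NKRF UV reads (6.49%, interval 2.14% to 14.5%) and 1 of 11 tag-only reads were substituted. The pooled share of other A in the core was 2.66% with NKRF, inside that interval. Coverage with NKRF UV was 71 normalised hits at 1322, 113 at 1324 and 223 at 1326, and with the tag 13 at 1322 and 1325 and 68 at 1326. The main step up lies 3′ of A1322, between C1325, where NKRF UV had 111, and A1326. In the NKRF PAR library coverage was 84 at 1322 and 80 at 1326, without such a step. The UV step follows a C, and 68.5% of core rises with the tag and 75.7% with NKRF followed a C or T. Whether A1322 had a part in it was not tested. At this depth a raised misreading of A1322 was not detectable.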

How the data were processed

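The mapper was Bowtie2 2.2.4, per the submitters' processing notes. For the rRNA reference, read filters and duplicate handling, details were not given in the sources used here. The deposited coverage signal of each 47S nucleotide is a number of hits per the file headers, and its values are scaled to 1000000 reads and rounded. The deposited score of each of 9 RNA classes is on the same scale, and was used only to check it (the classes summed to 1000409, 1000214, 1000504 and 1000345). In the tag-only PAR file the header is shifted, so coverage was read from the column headed as substitutions, and its base changes were not analysed here.

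Low values are spaced by the worth of a single read, which was recovered in this way; 99.6% to 100% of them matched whole reads within rounding. Windows, peaks and base shares were computed with Python 3.11.15, numpy 2.4.6, pandas 2.3.3 and SciPy 1.17.1, and the recovery of reads and the window calls were tested on simulated data. Named were, per library, the 3 core windows with the highest mean and the 3 highest peaks. Per comparison they were the 3 called windows with the largest log2 ratio in each direction. For base changes they were the 5 A, C or G with the highest substitution share and the 5 most deleted positions of each UV library, and the 5 T with the highest share in the NKRF PAR library at 20 reads or more. The position G1982, the window 2269 to 2318, T2580 and T2070 were singled out after their values were seen, as were T1980 and the borders of the top peak. The members and lists were chosen with earlier results of these data known. The list of modified bases was compiled after the files were read. The alternatives were the scaling, pseudocount, window, grid, coverage minimum, denominators, peak height and read minimums.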

Additional observations from a re-analysis of the deposited data

Results flagged for a closer look

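The ratio of NKRF over the tag alone went in opposite directions with UV and PAR for the core as a whole and for 5 of its windows, as shares of 47S coverage. For the core, the log2 ratio with UV was 2.30 above that with PAR. For the windows the gap was 3.19 at 1669 to 1718, 2.30 at 2419 to 2468, 3.20 at 2719 to 2768, 3.43 at 2769 to 2818 and 2.68 at 2819 to 2868. The difference between the modes was not tested, since each group holds 1 library. Depth moved with it: at least 77 reads lay on the core in the tag-only PAR library, against 3269 in the tag-only UV library. The part of depth in the result was not tested. Scaled to all reads of the library, the core stood above the tag after UV and after PAR alike, 4.47-fold and 4.48-fold.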

How the results depend on the processing

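No paired analysis was possible because each group holds 1 library. The scaling moved the results most. As a share of 28S coverage the core ratio of NKRF to tag was 0.588 with UV, against 1.86 as a share of 47S, and 0.163 with PAR, and the tag-only PAR to UV ratio was 1.35. Per library reads the ratios were 4.47 with UV, 4.48 with PAR (in place of 0.377), 0.136 for PAR to UV with NKRF and 0.135 with the tag. Without the highest window of either library the UV ratio was 1.94 and the NKRF PAR to UV ratio 0.455.

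Window calls are given as higher and lower, for NKRF to tag with UV, NKRF to tag with PAR, PAR to UV with NKRF and PAR to UV with the tag. Per library reads they were 26 and 0, 22 and 0, 0 and 24, and 0 and 23. Scaled to the core they were 0 and 1, 9 and 4, 9 and 5, and 5 and 8. A pseudocount of 10 gave 6 and 0, 0 and 23, 2 and 12, and 19 and 0. Windows of 100 nt (13 in the core) gave 5 and 0, 1 and 9, 0 and 6, and 5 and 0. A grid moved by 25 nt gave 12 and 0, 1 and 17, 1 and 14, and 11 and 3. A minimum of 100 hits gave 10 and 0, 0 and 3 (5 windows examined), 1 and 13, and 4 and 1.

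Of the named windows, log2 ratios turned per library reads at 1469 to 1518 (0.37) and 1969 to 2018 (0.36) for NKRF to tag with PAR, and at 1469 to 1518 (-0.54) and 1519 to 1568 (-0.17) for tag-only PAR to UV. With a pseudocount of 10 they turned at 1869 to 1918 (-0.65), 2569 to 2618 (-1.34) and 2619 to 2668 (-1.58) for NKRF to tag with PAR, where the tag-only library is at 0, and at 1369 to 1418 (0.27) and 1869 to 1918 (1.26) for tag-only PAR to UV. The cause was not tested.

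At 3 times the core mean 2, 2 and 1 peaks were left in the tag-only UV, NKRF UV and NKRF PAR libraries. With at least 50 reads 25 tag-only UV positions were substituted. Deletions at 10% left 3 positions in each UV library. With at least 20 reads, a minimum chosen after seeing the data, 6 T passed 50% in the NKRF PAR library, and with 50 reads 0 did. Without the position with the most substitutions, C stood at 1.13% with the tag and 1.26% with NKRF UV, A at 2.55% and G at 0.925% with NKRF UV. The tag-only PAR depth limits every ratio that uses it.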
